A study of Sus scrofa with 5 samples.

Results

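miR-182, miR-183 and miR-96 are small RNAs cut from a shared precursor transcript, and they were followed here through pig exosomes of 5 body fluids. The members were taken by name from the deposited lists, as every entry called miR-182, miR-183 or miR-96 with any arm suffix. The rule gave 3 of the 411 listed miRNA names, which are ssc-miR-182, ssc-miR-183 and ssc-miR-96-5p, written below without the species prefix. No other arm of these hairpins is among the names, and whether reads of a second arm were counted under miR-182 or miR-183 is not known from the labels. The libraries are of exosomes, the vesicles that cells shed into body fluids, from serum, semen, bile, urine and plasma of Rongchang pigs at postnatal day 180. Each fluid is 1 library, the animals carry no treatment or allele in the labels, and the labels do not say how many animals gave each fluid. Differences below are therefore differences between libraries. Their 95% intervals cover counting error only, and no test between fluids could be made.

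The cluster is conserved among vertebrates, and its members begin with similar but not identical bases, so that their targets overlap in part. It is best known from sensory organs: the receptor cells of eye and inner ear carry it at high levels, and changes in the seed of miR-96 cause progressive hearing loss in humans and mice. Outside sensory organs, miR-182 is induced in mouse helper T cells by interleukin-2 and represses Foxo1, and the cluster is often raised in human epithelial tumours. In the RefSeq gene table of assembly Sscrofa11.1, all 3 hairpin genes were found. They follow each other as MIR183, MIR96 and MIR182 with no other gene between them, and lie between UBE2H, which encodes a ubiquitin-conjugating enzyme, and NRF1, which encodes a transcription factor of mitochondrial and other housekeeping genes. The files use another build, so positions are not given.

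Summed over all names, serum had 473168 counts, and there were 2284926 in semen, 1673239 in bile, 26522 in urine and 1153755 in plasma. These were 4.47%, 21.2%, 15.9%, 0.246% and 16.01% of the library totals recovered from the authors' normalised values. In every library the smallest count above 0 was 10, so an entry at 0 stands for fewer than 10 reads, and it was taken as 10 counts where a bound was needed. In urine 10 counts are already 377 CPM (counts per 1000000 miRNA counts of the library), against 21.1 CPM in serum, 4.38 in semen, 5.98 in bile and 8.67 in plasma.

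All 3 members were listed in serum, semen and bile. Of all 411 names, 31.1% were listed in these 3 fluids together. In urine 1 of the 3 members was listed, miR-182, where 20.4% of all names were. In plasma 2 of the 3 were listed, miR-182 and miR-183, where 39.2% of all names were.

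miR-182, the most abundant member in 4 of the 5 libraries, had 3256 counts in serum, 7991 in semen, 4187 in bile, 70 in urine and 59 in plasma. Scaled to the miRNA total, it stood at 6881 CPM in serum (95% interval 6648 to 7121), 3497 in semen (3421 to 3575), 2502 in bile (2427 to 2579), 2639 in urine (2058 to 3333) and 51.1 in plasma (38.9 to 66.0). Serum was thus highest and plasma lowest, with the other fluids between. miR-182 had rank 17 among the 174 listed miRNAs of semen, rank 24 among 180 in serum and also rank 24 among 179 in bile. Its rank was 33 among 84 in urine and 103 among 161 in plasma.

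Of the 10 pairs of fluids, 9 had a miR-182 ratio whose counting interval lay clear of 1. The exception was bile and urine, with a ratio of bile over urine of 0.948 (0.749 to 1.22). Serum was 1.97 times semen (1.89 to 2.05), and semen was 1.33 times urine (1.05 to 1.70). The ratios to urine moved with the scaling. TMM and DESeq2 size factors, which scale libraries by their shared miRNAs, and the authors' RPM (reads scaled to a larger library total) were tried beside miRNA totals. Bile over urine came to 2.05 with TMM, 1.18 by DESeq2 size factors and 61.2 on RPM. Semen over urine came to 2.63 with TMM, 2.0 by DESeq2 size factors and 114 on RPM. Which fluid led depended on the scaling. Serum was highest under miRNA totals, TMM, DESeq2 size factors and totals without the most abundant miRNA, but serum was 1.13 times semen with TMM and 1.06 times when DESeq2 size factors were used. On the authors' RPM semen led, with 307 RPM in serum, 740 in semen, 397 in bile, 6.48 in urine and 8.19 in plasma.

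miR-183, encoded at the start of the cluster, had 304 counts in serum, 1304 in semen, 2545 in bile and 71 in plasma, and was listed at 0 in urine. These counts correspond to 642 CPM in serum (572 to 719), 571 in semen (540 to 603), 1521 in bile (1463 to 1581) and 61.5 in plasma (48.1 to 77.6). Bile, the secretion of the liver, was highest, and it stayed highest under all 5 scalings. Serum was 0.422 times bile (0.374 to 0.476) and semen 0.375 times bile (0.351 to 0.401). Serum and semen did not differ beyond counting error, at 1.13 times (0.990 to 1.28), and under the other 4 scalings serum was 0.238 to 0.648 times semen.

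miR-96-5p, the member tied to hearing, was the scarcest of the 3 in serum, semen and bile. It had 10 counts in serum, 923 in semen and 600 in bile, and was listed at 0 in urine and plasma. The levels were 21.1 CPM in serum (10.1 to 38.9), 404 in semen (378 to 431) and 359 in bile (330 to 388). Semen and bile were close, at 1.13 times (1.02 to 1.25). Semen had the higher value under all 5 scalings, but with TMM it was 1.03 times bile, a lead within counting error. Serum had 0.0523 times the semen level (0.0250 to 0.0967) and 0.0589 times the bile level (0.0281 to 0.109), although serum was the library with the highest CPM of miR-182. The serum value rests on 10 counts, the smallest the files list.

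**Figure D1:**
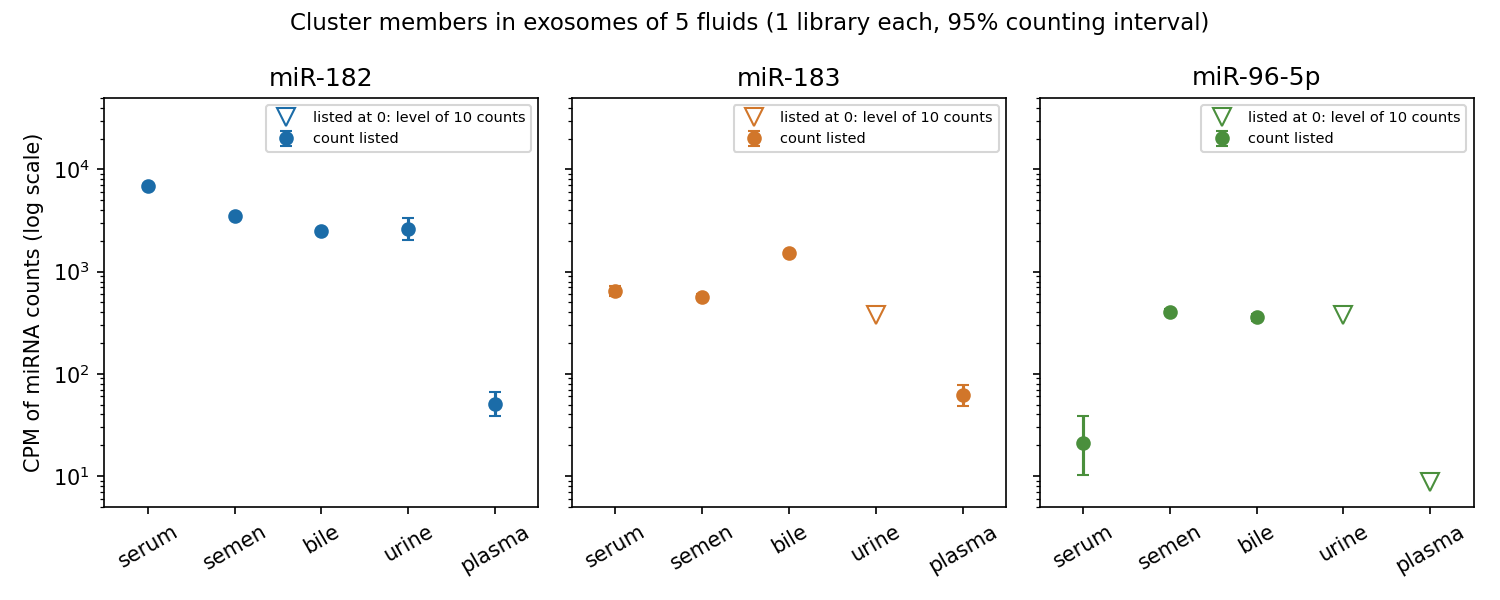
Level of each member in the 5 fluids as CPM of miRNA counts on a log axis, with exact 95% counting intervals. Open triangles mark entries listed at 0 and stand at the level of 10 counts. miR-182 is highest in serum, miR-183 in bile at 1521 CPM and miR-96-5p in semen at 404 CPM.

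Under miRNA totals each member was therefore highest in a different fluid among those that listed it. On the authors' RPM miR-182 and miR-96-5p were both highest in semen. Whether miR-96-5p in urine was as high as in semen was not resolved at this depth. The semen share would give 10.7 counts in urine, close to the listing limit, and semen was 1.07 times the level of 10 urine counts (0.580 to 2.24). Among the 166 miRNAs with at least 100 counts in any library, 36.7% were highest in serum, 14.5% in semen, 14.5% in bile, 18.7% in urine and 15.7% in plasma. The summed cluster took 0.754% of the miRNA counts in serum (0.730 to 0.780), 0.447% in semen (0.439 to 0.456), 0.438% in bile (0.428 to 0.448), 0.264% in urine (0.206 to 0.333) and 0.0113% in plasma (0.00941 to 0.0134). The sums of semen and bile did not differ beyond counting error, at 1.02 times (0.990 to 1.05). The lead of serum in the sum held under miRNA totals and under no other scaling, where serum was 0.356 to 0.972 times semen.

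**Figure D2:**
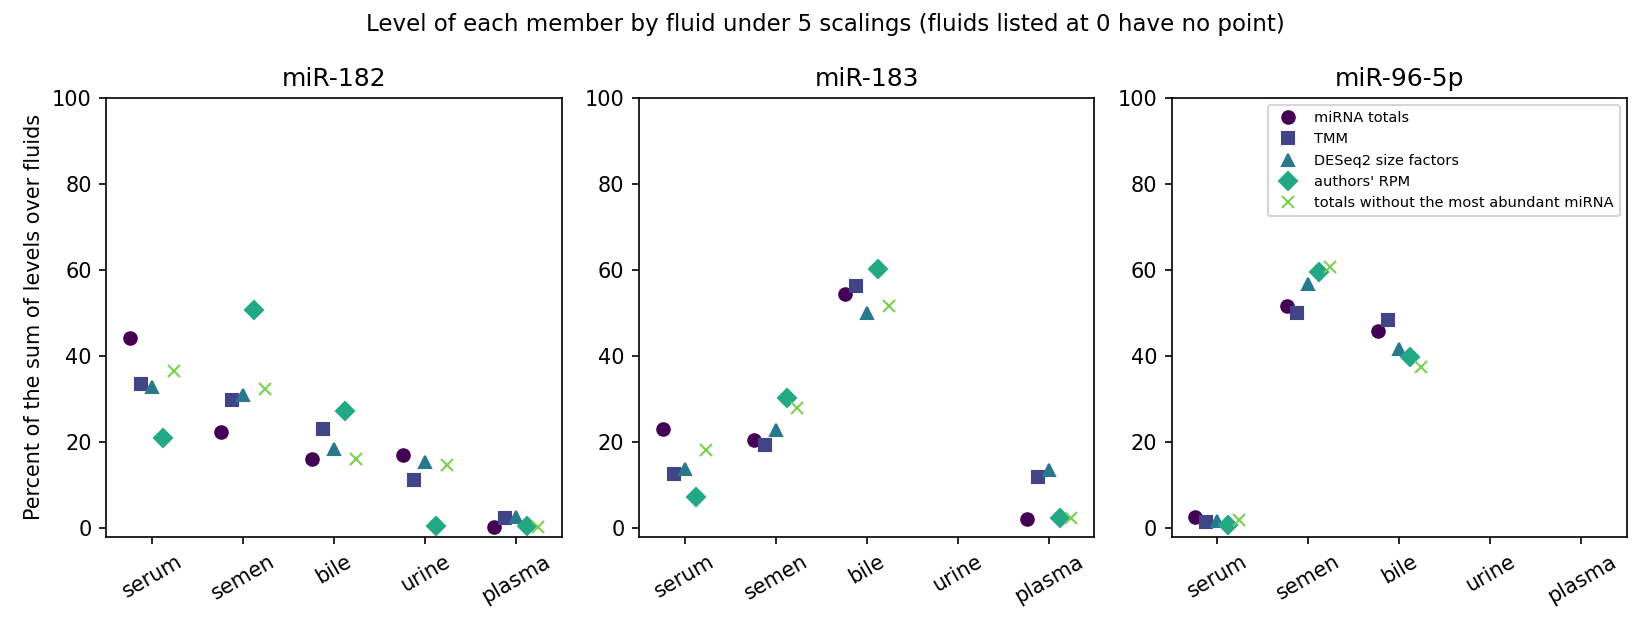
Level of each member by fluid under 5 scalings, as percent of its sum over the fluids in which it was listed. The lead of serum for miR-182 gives way to semen on the authors' RPM, at 307 in serum against 740 in semen. Bile leads for miR-183 under all 5. Semen has the highest value for miR-96-5p under all 5, but with TMM it is 1.03 times bile, within counting error.

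The proportions among the members do not depend on how libraries are scaled. In serum miR-182 made up 91.2% of the cluster's counts (90.2 to 92.1), miR-183 8.52% (7.62 to 9.48) and miR-96-5p 0.280% (0.134 to 0.515). Semen had 78.2% miR-182 (77.4 to 79.0), 12.8% miR-183 (12.1 to 13.4) and 9.03% miR-96-5p (8.48 to 9.61). Bile had 57.1% miR-182 (56.0 to 58.2), 34.7% miR-183 (33.6 to 35.8) and 8.18% miR-96-5p (7.57 to 8.83). Plasma, with 130 counts in all, held 45.4% miR-182 (36.6 to 54.3) and 54.6% miR-183 (45.7 to 63.4). All 70 cluster counts of urine were miR-182. The serum, semen and bile intervals were clear of each other for miR-182 and miR-183, and those of miR-96-5p overlapped between semen and bile.

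**Figure D3:**
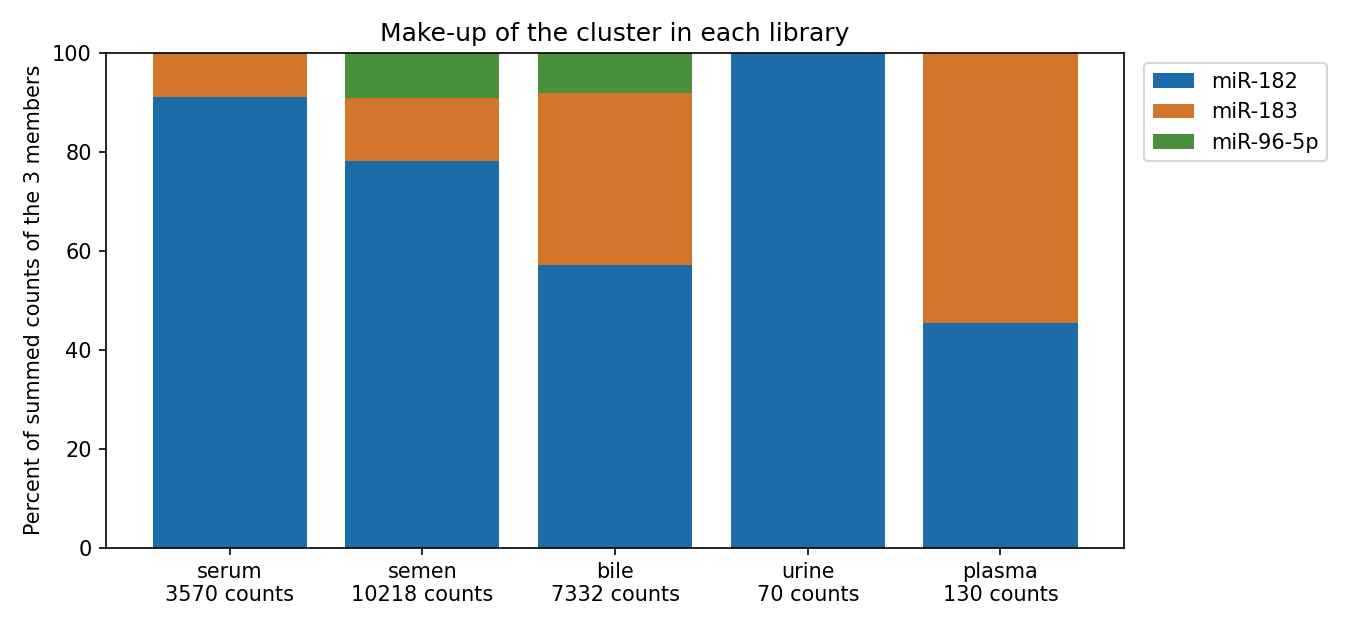
Percent of the summed counts of the 3 members that each member took, by library, with the summed counts under each bar. The miR-182 share is 91.2% in serum, 78.2% in semen, 57.1% in bile and 45.4% in plasma, and all 70 urine counts are miR-182.

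Within a library, miR-182 outnumbered miR-183 by 10.7 times in serum (9.52 to 12.1), 6.13 times in semen (5.78 to 6.50) and 1.65 times in bile (1.57 to 1.73). In plasma the ratio was 0.831 (0.578 to 1.19), so which of the pair was more abundant there was not resolved. In urine, with miR-183 taken as 10 counts, it was at least 7.0 (3.59 to 15.2), so its place relative to serum was open. Set against each other, the serum ratio was 1.75 times the semen ratio (1.53 to 2.0), 6.51 times the bile ratio (5.73 to 7.42) and 12.9 times the plasma ratio (8.80 to 18.9). The bile ratio was 1.98 times that of plasma (1.38 to 2.86).

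miR-182 outnumbered miR-96-5p by 326 times in serum (177 to 680), 8.66 times in semen (8.09 to 9.28) and 6.98 times in bile (6.40 to 7.61). The serum ratio was 37.6 times that of semen (20.3 to 78.8) and 46.7 times that of bile (25.1 to 97.9). Semen and bile were 1.24 times apart (1.11 to 1.39). miR-183 over miR-96-5p gave a different order, with 30.4 in serum (16.3 to 64.0), 1.41 in semen (1.30 to 1.54) and 4.24 in bile (3.88 to 4.64). Among serum, semen and bile, the excess of miR-183 over miR-96-5p was thus smallest in semen and largest in serum. In plasma, with miR-96-5p taken at the smallest listed count, the ratio was at least 7.1 (3.64 to 15.4). The place of plasma relative to serum was therefore open.

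The entries at 0 were set against the depth of their libraries. At the proportion of miR-183 to miR-182 seen elsewhere, the 70 miR-182 counts of urine would come with 6.54 miR-183 counts as in serum, 11.4 as in semen, 42.5 as in bile or 84.2 as in plasma. A urine make-up like that of serum would therefore go unlisted, while those of bile and plasma lie well above the smallest listed count. For miR-96-5p the same reckoning gave 0.215 counts as in serum, 8.09 as in semen and 10.03 as in bile, so its absence from the urine list is within the reach of depth. In plasma the 59 miR-182 counts would come with 0.181 miR-96-5p counts as in serum, 6.81 as in semen and 8.45 as in bile, all under the listing limit. At the share of all miRNA counts that miR-96-5p took in semen, plasma would instead have held 466 counts, and at the bile share 414. Plasma was thus low in all 3 members relative to semen and bile, and whether miR-96-5p was lower there than its partners could not be seen at this depth.

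Plasma stood far below serum, semen and bile for miR-182, and this was compared with all miRNAs of each pair of fluids. Serum was 135 times plasma (104 to 177), semen 68.4 times (52.96 to 89.9) and bile 48.9 times (37.9 to 64.4). Under miRNA totals the median miRNA was also higher in serum than in plasma, by 6.77 times, and by 4.49 times in semen and 4.59 times in bile. Relative to these medians, which no scaling affects, miR-182 was 19.9 times higher in serum, 15.2 times in semen and 10.7 times in bile. Among 119 miRNAs 2 had a larger ratio of serum over plasma than miR-182, and among 141 miRNAs each 9 had a larger ratio of semen or bile over plasma.

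By count, 73.1% of the 119 miRNAs were at least 2-fold higher in serum than in plasma, 55.3% of 141 in semen than in plasma and 60.3% of 141 in bile than in plasma. miR-182 and miR-183 were among them for all 3 fluids. These splits turned with the scaling. The median log2 ratio of serum over plasma, 2.76 under miRNA totals, was -0.54 with TMM, -0.59 by DESeq2, 0.92 on the authors' RPM and 2.28 with totals without the most abundant miRNA. TMM gave 34 miRNAs higher in serum and 52 in plasma, as did DESeq2 size factors, in place of 87 and 24. For semen, 42 with TMM and 43 with DESeq2 size factors were higher and 67 were higher in plasma, in place of 78 and 47. For bile, 47 against 61 in plasma with TMM and 40 against 64 with DESeq2 size factors replaced 85 against 40. For these 3 fluids over plasma miR-182 kept its direction under all 5 scalings, with serum 13.6 times plasma under TMM and 13.2 times under DESeq2 size factors. On the authors' RPM serum was 37.5 times plasma. Urine over plasma did turn with the scaling: it was 51.6 times under miRNA totals (36.0 to 74.3), 4.60 times with TMM, 6.24 times by DESeq2 size factors and 0.792 times on RPM.

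miR-183 was closer to the median miRNA in plasma. Serum was 10.4 times plasma (8.04 to 13.7), semen 9.27 times (7.30 to 11.9) and bile 24.7 times (19.5 to 31.7), which relative to the median ratios were 1.54, 2.07 and 5.39 times. Of the 119 miRNAs of serum and plasma, 50 had a larger ratio than miR-183. With TMM and DESeq2 size factors serum came to 1.06 and 1.02 times plasma, semen to 1.64 and 1.69 times and bile to 4.77 and 3.73 times. A bile level above plasma thus held for miR-183 under every scaling, and serum and plasma were nearly level under these 2.

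For miR-96-5p, semen was at least 46.6 times plasma, and bile at least 41.4 times, with plasma taken as 10 counts. The lower ends of the counting intervals were 25.2 for semen and 22.3 for bile. With TMM these bounds came to 8.25 for semen and 7.98 for bile, and by DESeq2 size factors to 8.52 for semen and 6.24 for bile. Between serum and bile the members stood far apart in the ranking of ratios. Among 138 miRNAs, 65 had a larger ratio of serum over bile than miR-182, 103 than miR-183 and 135 than miR-96-5p. Relative to the median, serum over bile was 1.17 times for miR-182, 0.179 times for miR-183 and 0.0250 times for miR-96-5p.

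Markers of other cells were read in the same libraries, as a measure of what else differed between the fluids. The erythrocyte markers miR-451, which is processed without Dicer in red cells, miR-486 and miR-144 summed to 10.21% of counts in serum, 0.000525% in semen, 0.417% in bile, 0.468% in urine and 0.583% in plasma. All 3 were listed in serum, bile and plasma, and 1 of 3 in semen and urine, with miR-451 and miR-144 at 0 in semen. The 8 leukocyte names, led by miR-146a-5p, a brake on inflammatory signalling, and the lymphocyte miRNA miR-342, summed to 2.15% in serum, 0.00643% in semen, 0.148% in bile, 0.0566% in urine and 0.361% in plasma. Of these names 6 were listed in serum, bile and plasma, 2 in semen and 1 in urine. The erythrocyte list was highest in serum under all 5 scalings. The leukocyte list was highest there under 3, but serum was 0.601 times plasma with TMM and 0.583 times by DESeq2 size factors. In plasma miR-146a-5p had 3836 of the 4169 counts of the list, and in serum 5315 of 10156. The members differed: miR-342 had 2970 counts in serum and 20 in plasma, miR-150 1008 and 37, and miR-142-3p 258 and 141. As shares of miRNA counts these were 0.628% and 0.00173% for miR-342, 0.213% and 0.00321% for miR-150, and 0.0545% and 0.0122% for miR-142-3p. In semen, where miR-182 had rank 17, the erythrocyte list took 0.000525% and the leukocyte list 0.00643% of counts. The part of either cell type in the miR-182 level of any fluid was not tested.

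The platelet list of 6 names, led by miR-24-3p and the widely expressed miR-191, summed to 2.87% in serum, 0.596% in semen, 0.441% in bile, 0.588% in urine and 0.240% in plasma. Of these names 5 were listed in serum, 5 in semen, 4 in bile, 3 in urine and 4 in plasma. In semen miR-191 had 11491 of the 13614 counts of the list. miR-191 took 0.654% of counts in serum and 0.503% in semen, miR-24-3p 1.73% and 0.0553%, and miR-126-3p 0.444% and 0.0366%. Serum held the highest sum under all 5 scalings, and plasma was second under TMM and DESeq2 size factors. On the authors' RPM serum was 1.02 times semen, a lead within counting error. The part of the platelet list in the miR-182 levels was not tested. The epithelial list was reduced to miR-429, of the miR-200 family, and miR-205. miR-429 had 1763 counts in semen, 338 in bile and 29 in urine and was listed at 0 in serum and plasma. miR-205, of stratified epithelium, had 99 counts in serum, 90 in semen and 24 in plasma. As a share of miRNA counts, miR-429 held 0.0772% in semen, 0.0202% in bile and 0.109% in urine. By the same measure miR-205 held 0.0209% in serum, 0.00394% in semen and 0.00208% in plasma. Of the fluids that listed it, miR-205 was thus highest in serum, where miR-429 was at 0. miR-205 was listed at 0 in bile and urine. The part of epithelial cells in the levels of miR-96-5p was not tested.

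Of the 3 hepatocyte names, miR-122 was listed in all 5 fluids, miR-885-5p in bile alone with 18 counts and miR-885-3p in none. miR-122 and miR-885-5p together took 5.47% of bile counts, and miR-122 took 0.389% of serum, 0.00140% of semen, 0.0377% of urine and 1.03% of plasma. The list was highest in bile as miR-183 was, except by DESeq2 size factors, where bile was 0.804 times plasma. miR-183 was also listed in semen with 1304 counts, where miR-122 had 32. The kidney tubule list of miR-192, miR-194a and miR-204 was likewise highest in bile, at 14.2%, against 1.31% in serum, 0.0208% in semen, 2.01% in urine and 0.381% in plasma. All 3 names were listed in semen, bile and urine and 2 in serum and plasma, with miR-204 at 0 there. miR-192 led this list with 13.7% of bile counts, and miR-194a held 0.445% there. In urine miR-192 held 1.40% and miR-194a 0.136%. miR-204 did not follow the sum, with 0.471% of urine counts against 0.0155% in bile and 0.00683% in semen. The names of this list thus went different ways between bile and urine, and their sum was not taken as a level of kidney tubule material. The part of the hepatocyte and kidney tubule names in the miR-183 level was not tested.

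Shifts in proportion were compared with those of other miRNAs that lie together in clusters known from textbooks. Of 29 other pairs on the list, 24 had at least 10 counts of both partners in 2 or more libraries. The log2 ratio within a library ranged over the fluids by 3.69 for miR-182 and miR-183, 5.54 for miR-182 and miR-96-5p and 4.43 for miR-183 and miR-96-5p. The median range of the 24 other pairs was 2.27. Of these pairs 10 ranged more widely than miR-182 and miR-183, 4 more than miR-182 and miR-96-5p and 5 more than miR-183 and miR-96-5p. These ranges rest on 2 to 5 libraries. Over serum, semen and bile alone, where 18 other pairs were measured, the median range was 2.11. There the range of miR-182 and miR-183 was 2.70, with 7 pairs wider, and 0 pairs were wider than miR-182 and miR-96-5p and 3 wider than miR-183 and miR-96-5p. The narrowest was miR-16 over miR-15b with 0.068 over 2 libraries, and the widest was miR-100 over miR-125b with 7.33 over 5. At 100 or more counts of both partners, serum drops out for miR-96-5p and its ranges came to 0.31 with miR-182 and 1.59 with miR-183, beside a median of 1.72. Several listed pairs have a further gene copy elsewhere, so their ratio mixes sources.

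**Figure D4:**
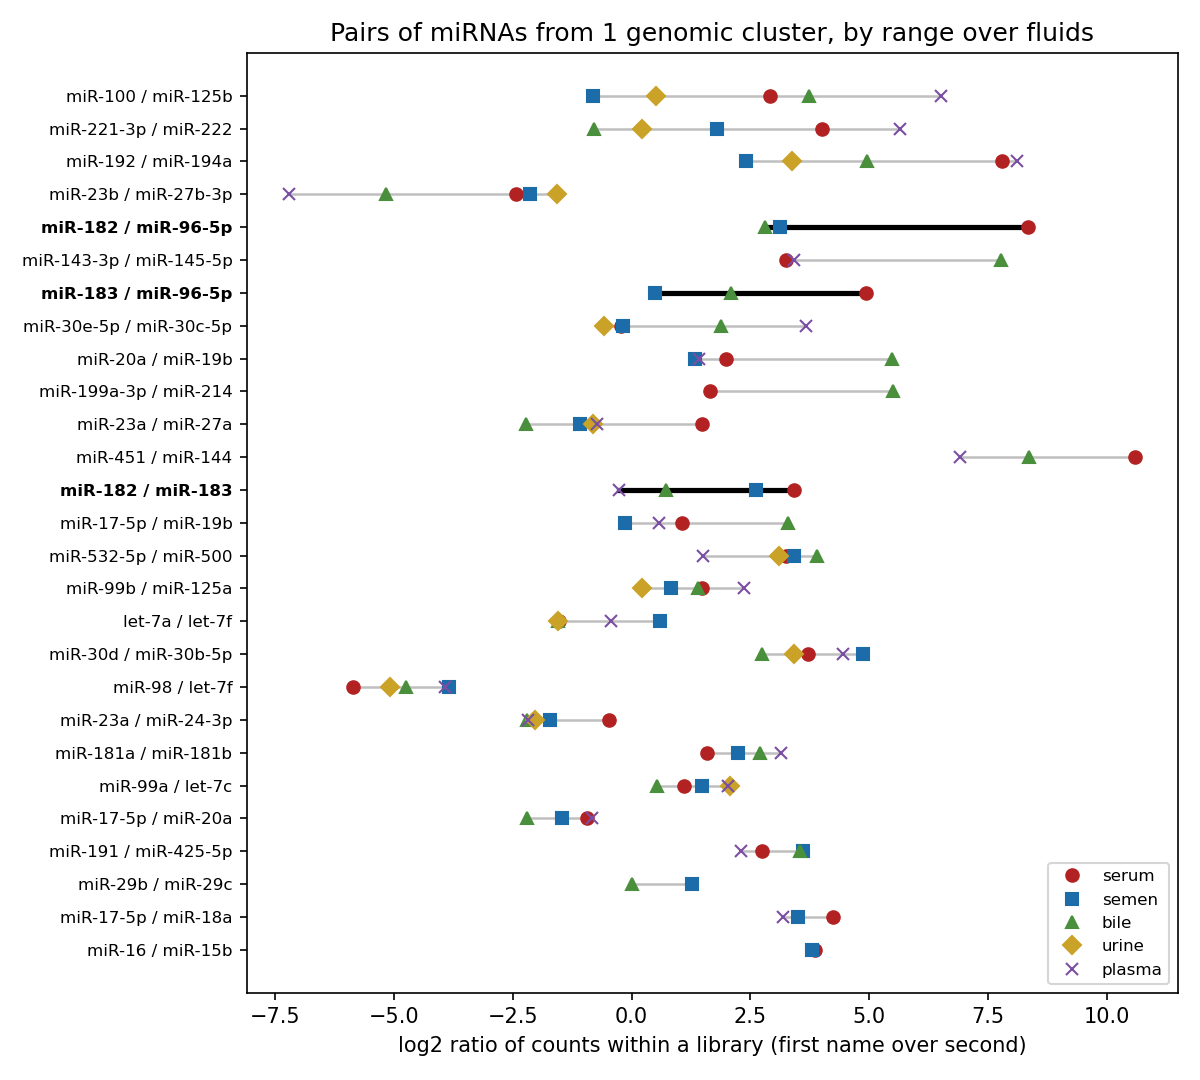
Log2 ratio of counts within a library for 27 pairs of clustered miRNAs, ordered by their range over fluids, with 1 point for each fluid where both had at least 10 counts. The 3 pairs of the cluster, in bold with black lines, range by 3.69, 5.54 and 4.43, and serum is the highest of the plotted fluids in each.

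The miRNAs most like miR-182 over the 5 libraries were sought among 165 miRNAs by the root mean square difference of log2 CPM centred on the mean of each miRNA, with entries under 10 taken as 10 counts. The nearest were let-7a at 0.53, let-7d-5p at 0.69, let-7f at 0.77, miR-30d at 0.87 and miR-98 at 0.87, beside a median of 2.60 over all. The let-7 members and miR-98 share a seed family that holds back proliferation genes. miR-183 came at place 20 with 1.40 and miR-96-5p at place 64 with 2.22. On log2(CPM + 1), where an entry at 0 counts as 0, miR-183 came at place 109 and miR-96-5p at place 77, and the 5 nearest were the same. The let-7 miRNAs named were therefore closer to miR-182 over these libraries than its own cluster partners were. Without the urine library, the nearest were miR-23b, let-7a, miR-30b-5p, miR-26a and miR-30c-5p, with 1 of the 5 shared, and miR-183 came at place 22.

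**Figure D5:**
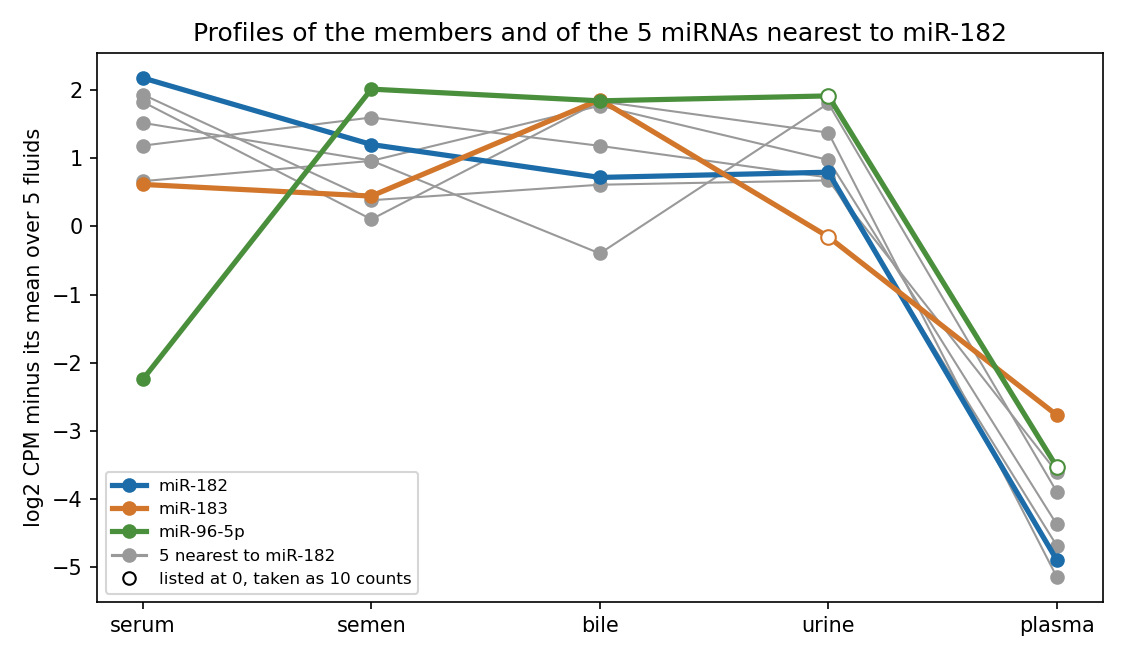
Log2 CPM minus its mean over the 5 fluids for the members and, in grey, the 5 miRNAs nearest to miR-182. Open circles are entries listed at 0 and taken as 10 counts. The grey profiles follow miR-182 at 0.53 to 0.87, and miR-96-5p leaves it in serum. Lines join the points of a miRNA and imply no order of fluids.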

How the data were processed

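Small RNA of exosomes was sequenced from 5 fluids, 1 library each. Per the labels' protocols, exosomes came from a commercial reagent and RNA from Trizol, and small RNA was size-selected, ligated, reverse transcribed and amplified. The labels name different Illumina instruments. Per the submitters' processing notes, bcl2fastq 2.17 and build Sscrofa10.2 were used. The labels give no aligner, no annotation and no treatment of multiply matching reads.

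The authors deposited a read count and a normalised value per miRNA name. The latter fits RPM computed by the authors against a library total larger than the miRNA counts: dividing the deposited count by it gave 1 constant per library within 0.00461%.

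For shares, exact 95% intervals followed Clopper and Pearson, and for ratios the conditional binomial distribution (scipy 1.17.1). Reads without molecular identifiers are not independent molecules, so intervals cover counting error only. The ratio and counting steps were tested on simulated data. Background counts used miRNAs with at least 100 counts in either library and a limit of 2-fold. Members, lists and pairs were chosen with earlier results of these data known. Of the names on the pair list, 3 are not among the 411. Named miRNAs were set by rule: the members, the 5 nearest to miR-182, the 2 leading names of each list and the narrowest and widest pair. Further names in the lists and pairs, and the nearest after leaving out urine, were picked with their values in view. The alternatives tried were TMM (edgeR 4.0.16), size factors (DESeq2 1.42.0), the authors' RPM, totals that leave out the most abundant miRNA, other count filters, a floor of 3 counts, a pseudocount of 1 CPM, summed arms and leaving out urine. Ratios relative to the median, the splits by scaling and the profiles nearest to miR-183 and miR-96-5p were added after the data were seen.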

Additional observations from a re-analysis of the deposited data

How the results depend on the processing

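No paired analysis was possible because each fluid has 1 library. Of 116 ratios between fluids recomputed under another scaling, 19 fell on the other side of 1. Of these, 10 had a counting interval clear of 1 under miRNA totals and count as reversed below, and 9 had an interval that held 1, among them miR-183 in serum over semen and miR-182 in bile over urine. For the summed cluster, serum over semen (1.69) became 0.966 (TMM), 0.906 (DESeq2 size factors), 0.356 on the authors' RPM and 0.972 with totals without the most abundant miRNA. The values 0.966 and 0.972 are within counting error of 1, so neither fluid led under those scalings. Serum over bile (1.72) became 0.904 with TMM and 0.485 on RPM. Semen over bile (1.02) came to 0.936 (TMM), 1.24 (DESeq2 size factors), 1.36 on RPM and 1.47 with totals without the most abundant miRNA. Bile over urine (1.66) came to 3.59 with TMM and 107 on RPM, and urine over plasma (23.4) to 2.09 (TMM), 2.83 (DESeq2 size factors) and 0.359 (RPM). For miR-182 alone, RPM reversed serum over semen (0.415), serum over bile (0.775) and urine over plasma (0.792). The number of miRNAs at least 2-fold higher in serum than in plasma (87) was 34 with TMM and 34 with DESeq2 size factors. It was 146 at 10 or more counts, and dropping the filter cannot change this, since no count above 0 is below 10. The floor adds to the 146: a name with 10 counts in serum and 0 in plasma already passes, at 2.44 times. Shares within the cluster were the same with arms summed, since 1 arm is listed per member. Of the 5 miRNAs nearest to miR-182, 1 was shared without the urine library, and all 5 were with log2(CPM + 1). Scalings cannot alter that distance. With a floor of 3 counts, miR-182 over miR-183 in urine was 23.3, against 7.0, and semen over plasma for miR-96-5p was 155, against 46.6. Depth limits urine most, where 10 counts are 377 CPM. The miRNA left out of the totals was miR-148a-3p in serum, semen and bile, with 18.1%, 52.8% and 32.1% of their miRNA counts. In urine it was miR-30a-5p with 22.1%, and in plasma miR-378 with 41.4%. The cause of the shifts above was not tested.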

Other observations

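The profiles nearest to the other members were also sought, a choice made after the data were seen. Nearest to miR-183 among 165 miRNAs was miR-101, which targets the histone methyltransferase EZH2 in human cells, at a root mean square difference of 0.35 on the log2 scale. miR-101 had 1141 counts in serum, 4645 in semen, 9615 in bile, 60 in urine and 433 in plasma. let-7i at 0.52 and let-7c at 0.56 followed.

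Nearest to miR-96-5p was miR-374a-5p, encoded on the X chromosome in humans, at 0.41. It had 18 counts in serum, 932 in semen, 688 in bile and 19 in urine and was listed at 0 in plasma. miR-32 followed at 0.46, with 17 counts in serum, 1378 in semen, 521 in bile and 20 in urine, and was also listed at 0 in plasma. miR-222, with 32, 654, 521, 12 and 10 counts in serum, semen, bile, urine and plasma, came next at 0.76. These miRNAs, like miR-96-5p, were abundant in semen and bile and had at most 32 counts in serum. miR-182 stood at place 53 from miR-96-5p and miR-183 at place 33. Entries at 0 enter these distances as 10 counts, in urine for miR-183, in urine and plasma for miR-96-5p, and in plasma for miR-374a-5p and miR-32, so the match of the last 3 in plasma is set by that floor.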
